A study of Mus musculus with 10 samples.

Results

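A set of 10 genes of the integrated stress response and of serine and one-carbon metabolism were followed in mouse heart ventricle after loss of Trbp. They were chosen by symbol (Atf4, Ddit3, Trib3, Chac1, Asns, Phgdh, Psat1, Shmt2, Mthfd2 and Aldh1l2), and all 10 were found among the 23360 genes of the deposited mRNA table. Ventricle RNA of C57BL/6 mice at 2 weeks of age was sequenced in 2 wild-type (WT) and 2 Trbp-cKO libraries, and the cKO genotype is a conditional knockout of Trbp, the double-stranded RNA-binding partner of Dicer encoded by Tarbp2. The Cre driver, the cells it acts in and the control genotype beyond wild type are not stated in the labels, nor is it stated whether replicates are separate animals, so that p-values measure only the spread between these libraries. Small RNA libraries of the series, made at postnatal day 2.5, do not measure these genes.

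In the integrated stress response, kinases that sense lack of amino acids, misfolded protein, double-stranded RNA or lack of heme phosphorylate the translation factor eIF2alpha. General translation then slows while the transcription factor ATF4 is made in larger amounts, and ATF4 raises genes of amino acid supply, serine synthesis and the mitochondrial folate pathway. In that pathway, serine made from a glycolytic intermediate gives up a carbon to folate, which leaves mitochondria as formate or ends as carbon dioxide. In heart and skeletal muscle these genes are known to rise together when mitochondrial gene expression or respiration is impaired.

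Of the 9 members expressed highly enough to test, 2 rose and none fell in Trbp-cKO ventricles (background 9.37% of all 13625 genes in either direction). Chac1 rose 2.21-fold and Aldh1l2 rose 1.68-fold, while the transcription factor gene Atf4 itself, at 1.16-fold, did not pass. Over all genes tested, 5.17% rose and 4.20% fell in edgeR's quasi-likelihood test at a Benjamini-Hochberg adjusted p under 0.05. DESeq2 called the same 2 members higher and 0 lower. At an unadjusted edgeR p under 0.05 stood 6 members, beside 23.9% of all genes tested, and 3 of them were lower (Psat1, Shmt2 and Mthfd2), beside 11.4% of all genes tested. The median log2 fold change of the 9 members was -0.06, and that of all genes tested was 0.00. Phgdh had 4 to 10 counts per library and was left out by the filter on low counts.

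**Figure D1:**
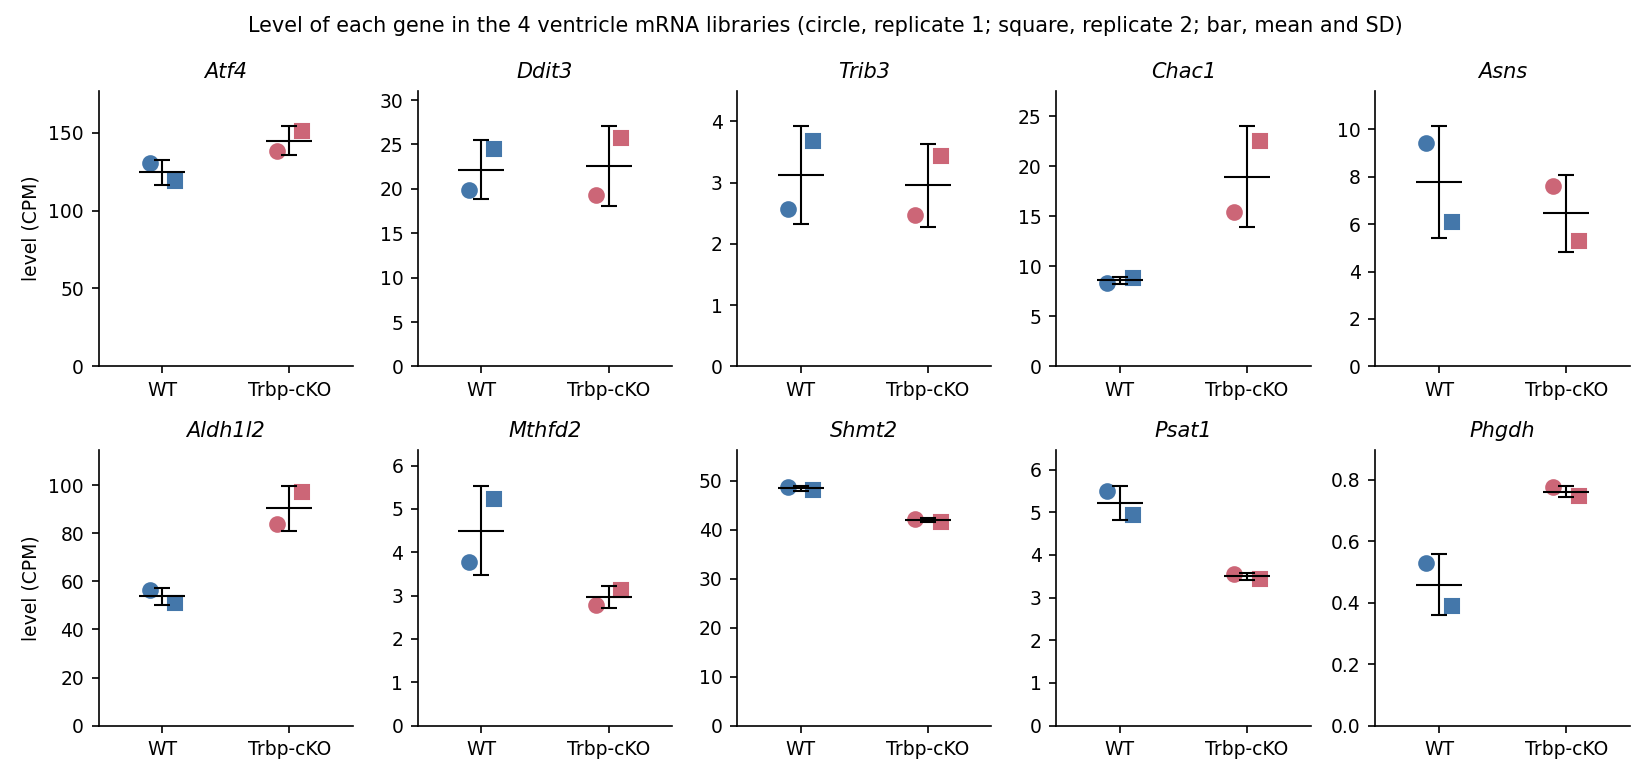
Level of each of the 10 genes in CPM (counts scaled to library size, y axis from 0) in WT and Trbp-cKO libraries, with a circle for replicate 1, a square for replicate 2, and a bar for the mean and SD. Both Trbp-cKO libraries lie above both WT libraries for Atf4, Chac1, Aldh1l2 and Phgdh, and below them for Mthfd2, Shmt2 and Psat1.

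Depth ran from 10151184 to 13540495 counts in a library, taking the most counted transcript of every gene, and levels are CPM scaled by TMM. Tarbp2, the targeted gene, stood at 12.7 and 11.5 CPM in WT and at 3.87 and 3.89 CPM in Trbp-cKO (log2 fold change -1.64 ± 0.17 SE, edgeR adjusted p = 0.000653). Its annotated span overlaps Map3k12. Of the cardiomyocyte genes, Myh6 was at 33109 ± 102 CPM in WT against 43400 ± 1216 CPM under Trbp-cKO (SD, n = 2 each; edgeR adjusted p = 0.00200). Other genes of its list fell, as given below. Among other genes named below, the spans of Psph, Ppp1r15a, Hspa5, Eif2ak1 and Alas2 overlap protein-coding genes, and those of Mtr, Mthfd1, Mthfd1l, Mthfd2l, Aldh1l1, Gsn, Abcc9 and Cd163 overlap lncRNA genes, so that their counts may include shared reads. Transcript lengths were not used, so that levels are compared between libraries for 1 gene and not between genes.

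Among the regulators, Atf4 (NM_009716, chromosome 15, 80255184 to 80257545 in GRCm38), the effector of the pathway, was at 130 and 119 CPM in WT and at 138 and 151 CPM in Trbp-cKO. Both Trbp-cKO libraries were above both WT libraries, as for 27.5% of all genes tested. The log2 fold change was 0.21 (95% interval 0.05 to 0.38) and did not pass after adjustment over all genes (edgeR adjusted p = 0.115), nor under any of 11 alternative settings, where the adjusted p ranged from 0.0569 to 0.525. ATF4 protein depends on translation of this transcript as well as on its amount, and protein was not measured.

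Ddit3 (NM_007837, chromosome 10, 127290793 to 127296291) encodes CHOP, a partner and target of ATF4 under lasting stress. It was at 19.8 and 24.5 CPM in WT and at 19.4 and 25.7 CPM in Trbp-cKO, so that the genotypes overlapped fully. A log2 fold change of 0.03 had an interval of -0.36 to 0.42 (edgeR adjusted p = 0.945). Its span overlaps Mbd6 and the synthetase gene Mars1, and reads of these genes cannot be told apart where they overlap.

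Trib3 (NM_175093, chromosome 2, 152337425 to 152344060), a pseudokinase that is induced by ATF4 and CHOP and restrains them, had 32 to 46 counts per library. It was at 2.56 and 3.68 CPM in WT and at 2.48 and 3.44 CPM in Trbp-cKO. Replicates differed by 1.44-fold in WT, more than the genotype means, and the log2 fold change of -0.06 had an interval of -0.71 to 0.60 (edgeR adjusted p = 0.937). A rise of the size of that of Chac1 lies outside the intervals of both Ddit3 and Trib3.

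Chac1 (NM_026929, chromosome 2, 119351242 to 119354326) encodes a gamma-glutamylcyclotransferase that breaks down glutathione, and is a well-known target of the ATF4 and CHOP branch. Its counts were 111 and 91 in WT and 199 and 301 in Trbp-cKO, which gave 8.37 and 8.82 CPM against 15.4 and 22.5 CPM. The WT libraries were close to each other, the Trbp-cKO libraries differed by 1.46-fold, and the lower of them was still above both WT libraries. The log2 fold change was 1.14 ± 0.20 SE (interval 0.70 to 1.59, edgeR adjusted p = 0.00855), which placed Chac1 as number 73 by size among the 705 genes that rose. The call ended when either WT library was left out, at an adjusted p of 0.126 (log2 fold change 1.10) lacking WT replicate 1 and 0.109 (1.17) lacking WT replicate 2. In the authors' deposited table the ratio of Chac1 was 2.20 with a q-value of 1.55e-07.

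Asns (NM_012055, chromosome 6, 7675165 to 7693209) encodes asparagine synthetase, the enzyme that makes asparagine and a classic readout of amino acid shortage through ATF4. It was at 9.43 and 6.11 CPM in WT and at 7.59 and 5.31 CPM in Trbp-cKO. The genotypes overlapped, and within each of them replicate 1 was above replicate 2, by 1.54-fold in WT and 1.43-fold in Trbp-cKO. A log2 fold change of -0.28 came with an interval of -0.89 to 0.32 (edgeR adjusted p = 0.569). Neither a rise of up to 0.32 nor a fall down to -0.89 could be told from no change.

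ATF4 binds DNA with C/EBP partners at a composite element known as CARE, searched here as TGATGNAA on both strands in the 250 bases before each RefSeq start. Promoters of 9 members were matched by symbol, in 10 windows since Psat1 has 2, and Aldh1l2 was the member without one. CARE was found in 2 of the 9 genes, Chac1 and Asns, and in 3.45% of all 32851 promoter windows of that length (2.00% of the 13680 windows of genes tested here). In Chac1 the match lay on the minus strand relative to the gene, 193 to 186 bases before the start, and it had C at the free base, as TGATGCAA, a form held by 0.791% of all windows. In Asns the match lay on the plus strand, 23 to 16 bases before the start. These promoters are printed because the same element precedes the member that rose most and a member whose genotypes overlapped, with the CARE letters in capitals.
Chac1, chr2:119350992-119351241, plus strand, GRCm38.p6: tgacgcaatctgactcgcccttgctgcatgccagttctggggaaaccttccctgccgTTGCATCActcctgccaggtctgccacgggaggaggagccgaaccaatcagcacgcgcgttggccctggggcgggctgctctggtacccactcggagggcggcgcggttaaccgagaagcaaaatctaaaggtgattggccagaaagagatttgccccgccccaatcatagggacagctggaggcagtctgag
Asns, chr6:7693210-7693459, minus strand, GRCm38.p6: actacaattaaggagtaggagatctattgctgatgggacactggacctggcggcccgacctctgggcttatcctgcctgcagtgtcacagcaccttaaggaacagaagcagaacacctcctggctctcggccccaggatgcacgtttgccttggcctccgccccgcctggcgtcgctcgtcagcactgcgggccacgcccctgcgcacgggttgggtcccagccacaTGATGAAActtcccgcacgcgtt
The windows of the other 7 members did not hold these letters before the start, and Trib3 held them once the 50 bases after it were included. Of the other elements searched on both strands, the NSRE-2 letters GTTACA, the E-box CACGTG and the endoplasmic reticulum element ERSE were in none of the 9 genes before the start, against 7.07%, 6.02% and 0.113% of all windows. With the 50 bases after the start, Asns held GTTACA. A match is a description of letters and not of binding.

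In serine synthesis, Phgdh (NM_016966, chromosome 3, 98313171 to 98339969), which draws the glycolytic intermediate into the path, was barely detected. Its counts were 7 and 4 in WT and 10 and 10 in Trbp-cKO, or 0.528 and 0.388 CPM against 0.774 and 0.747 CPM. With no filter the log2 fold change was 0.70 with an interval of -0.55 to 1.94 (edgeR adjusted p = 0.603), so that a difference was not detectable at this depth. A pseudogene, Phgdh-ps1, is annotated and may share reads.

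Psat1 (NM_177420, chromosome 19, 15905123 to 15925059), the aminotransferase of the next step, had 73 and 51 counts in WT and 46 in each Trbp-cKO library. That gave 5.50 and 4.94 CPM against 3.56 and 3.44 CPM, each Trbp-cKO value under each WT value, as for 27.1% of all genes tested. The log2 fold change was -0.58 (interval -1.05 to -0.11) and did not pass (edgeR adjusted p = 0.128). Psph, the phosphatase that ends the path, was at 9.81 ± 0.307 CPM in WT, against 8.06 ± 0.0949 CPM in Trbp-cKO (SD, n = 2 each; log2 fold change -0.28 ± 0.16 SE, edgeR adjusted p = 0.317).

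The 3 mitochondrial folate members did not move alike. Shmt2 (NM_028230, chromosome 10, 127517123 to 127522444), which passes the carbon of serine to folate, was at 48.9 and 48.1 CPM in WT and at 42.3 and 41.7 CPM in Trbp-cKO. The replicates were within 1.02-fold of each other and the genotypes did not overlap, but the log2 fold change of -0.21 (interval -0.39 to -0.03) did not pass (edgeR adjusted p = 0.150). Its span overlaps Ndufa4l2. Mthfd2 (NM_008638, chromosome 6, 83305704 to 83326011), the dehydrogenase and cyclohydrolase that follows, was at 3.77 and 5.23 CPM in WT and at 2.79 and 3.14 CPM in Trbp-cKO. Its log2 fold change was -0.59 (interval -1.16 to -0.02), on 36 to 54 counts per library, and did not pass (edgeR adjusted p = 0.194).

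Aldh1l2 (NM_153543, chromosome 10, 83487447 to 83534146), the mitochondrial enzyme that oxidises formyl-folate to carbon dioxide and yields NADPH, rose. Its counts were 746 and 528 in WT and 1081 and 1298 in Trbp-cKO, or 56.3 and 51.2 CPM against 83.7 and 97.0 CPM. The log2 fold change was 0.75 ± 0.09 SE (interval 0.55 to 0.95, edgeR adjusted p = 0.00140), number 154 by size among the genes that rose. It passed under all 11 alternatives, at log2 fold changes from 0.64 to 0.85 and adjusted p up to 0.0430. The lncRNA gene Gm51778 overlaps its span, and the use of strand in counting is not given. In the authors' deposited table its ratio was 1.67 with a q-value of 7.49e-05, and Aldh1l2 and Chac1 were the 2 members among the 746 transcripts of the authors' list of differences.

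**Figure D2:**
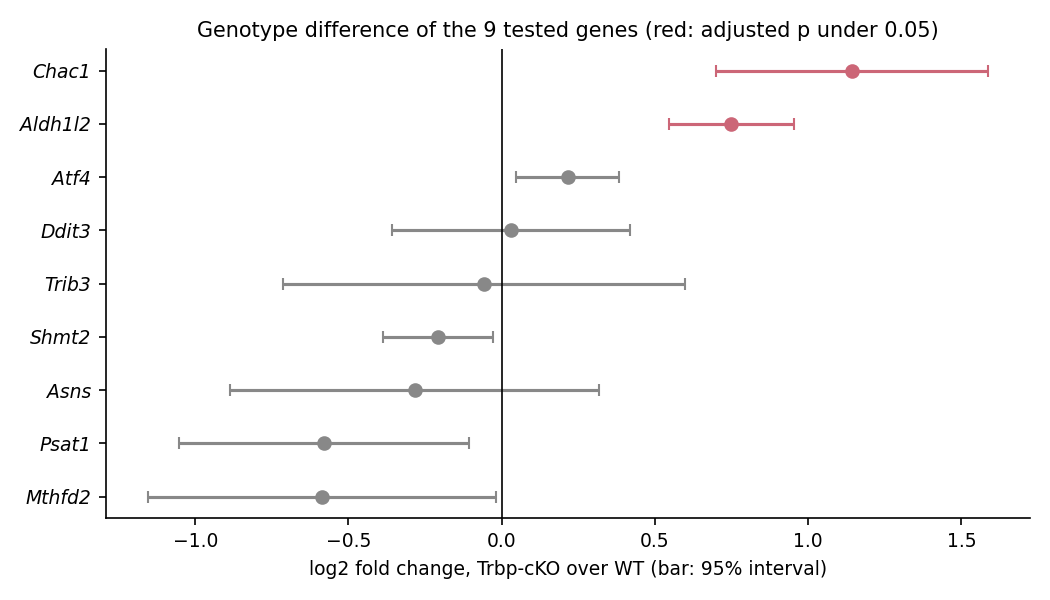
Log2 fold change of Trbp-cKO over WT (x axis) with its 95% interval for the 9 tested genes (y axis), in red where the adjusted p was under 0.05. Chac1 (1.14) and Aldh1l2 (0.75) are in red, the interval of Atf4 lies above 0, and those of Shmt2, Psat1 and Mthfd2 lie below 0 without passing the adjustment over all genes.

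**Figure D3:**
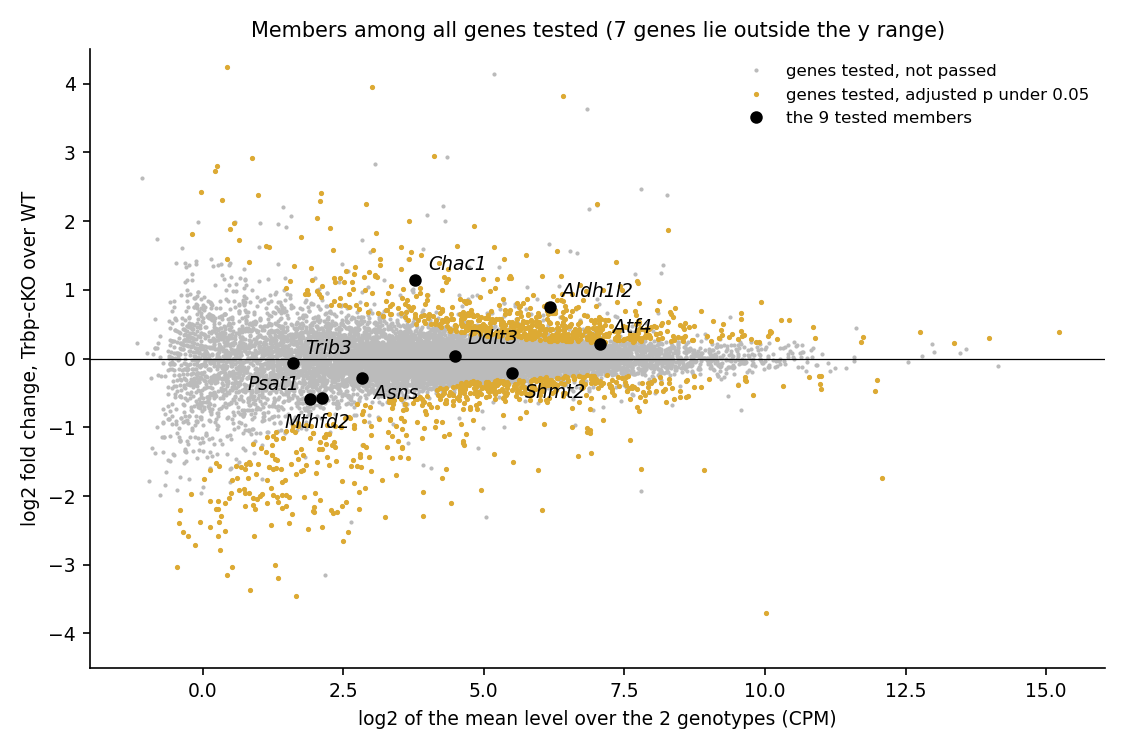
Log2 fold change of every gene tested (y axis) against the log2 of its mean level in CPM (x axis), with the 9 tested members in black, genes past the threshold in yellow, and 7 genes outside the y range. Chac1 and Aldh1l2 lie at the 99.0 and 97.6 percentile of all log2 fold changes, and Psat1 and Mthfd2 at the 5.00 and 4.89 percentile.

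Among the 9 tested members, 3 had both Trbp-cKO libraries above both WT libraries, 3 had both below, and 3 overlapped. Genes whose genotypes did not overlap made up 54.6% of all genes tested, so that 6 of 9 is near the background. Those above were Atf4, Chac1 and Aldh1l2, those below were Mthfd2, Shmt2 and Psat1, and Ddit3, Trib3 and Asns overlapped. The differences between members were not tested.

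Upstream of ATF4, no gene of the list of eIF2alpha kinases, phosphatase subunits and eIF2B passed. Of 14 tested, edgeR and DESeq2 each called 0, and 5 had an unadjusted edgeR p under 0.05. The median log2 fold change was -0.02. Of the 4 kinases, the heme-regulated Eif2ak1 was at -0.01, the endoplasmic reticulum kinase Eif2ak3 (PERK) at 0.13 and the amino acid sensor Eif2ak4 (GCN2) at -0.08. Eif2ak2 (PKR), the double-stranded RNA sensor, whose span overlaps 2 other genes, was at 22.1 and 24.7 CPM in WT and at 19.4 and 16.1 CPM in Trbp-cKO. Its log2 fold change of -0.40 ± 0.13 SE did not pass (edgeR adjusted p = 0.0869) but did if low genes were kept (0.0385) or Trbp-cKO replicate 1 was dropped (0.0453). Eif2s1, which encodes eIF2alpha itself, was at -0.30 ± 0.09 (edgeR adjusted p = 0.0645) and passed with no filter (0.0396) and with total count scaling (0.0405). Ppp1r15a (GADD34), the phosphatase subunit through which the pathway turns itself off, was at 41.8 and 35.7 CPM in WT and at 61.4 and 47.3 CPM in Trbp-cKO. Its log2 fold change of 0.49 did not pass (edgeR adjusted p = 0.0937), but did without Trbp-cKO replicate 2.

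Of 12 tested bZIP partners and feedback regulators of ATF4, 1 rose and none fell, in edgeR and in DESeq2. In edgeR, 5.17% and 4.20% of all genes tested did. An unadjusted edgeR p under 0.05 was reached by 2, both higher, beside 23.9% of all genes tested in either direction. The gene that rose was Ddit4 (REDD1), a stress-induced inhibitor of mTORC1 signalling, with 117 and 120 CPM in WT against 188 and 162 CPM under Trbp-cKO (log2 fold change 0.56 ± 0.08 SE, edgeR adjusted p = 0.00335). Its call ended without WT replicate 1 (edgeR adjusted p = 0.0822) or WT replicate 2 (0.0723). Atf3, an immediate stress factor, was at 48.0 and 19.5 CPM in WT against 136 and 82.9 CPM under Trbp-cKO. Replicate 1 was the higher library in both genotypes, and the log2 fold change of 1.67 ± 0.68 SE did not pass (edgeR adjusted p = 0.348) and ranged from 1.18 to 2.49 when a library was left out. Within both genotypes replicate 1 was the higher library for Atf3 and Ppp1r15a, and in Trbp-cKO also for Ddit4. In Trbp-cKO, Chac1, Aldh1l2 and Atf4 were higher in replicate 2. In WT, Aldh1l2 and Atf4 were higher in replicate 1, and Chac1 in replicate 2.

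Amino acid transporters and enzymes reported under ATF4 gave 2 rises and no fall among 15 tested, beside 5.17% and 4.20% of all genes tested. Their median log2 fold change was -0.13. An unadjusted edgeR p under 0.05 was reached by 6 of them, 4 higher and 2 lower, beside 23.9% of all genes tested in either direction. Slc38a2 (SNAT2), the neutral amino acid transporter induced by amino acid shortage, was at 637 and 586 CPM in WT and at 906 and 908 CPM in Trbp-cKO (log2 fold change 0.57 ± 0.07 SE, edgeR adjusted p = 0.00150). Gpt2, the mitochondrial alanine aminotransferase, was at 63.5 and 69.7 CPM in WT and at 108 and 93.9 CPM in Trbp-cKO (log2 fold change 0.60 ± 0.09, edgeR adjusted p = 0.00357). Slc38a2 lost its call when WT replicate 2 was dropped (edgeR adjusted p = 0.0641), and Gpt2 when WT replicate 1 was (0.0773). Slc7a1, the transporter of arginine and lysine, went the other way, from 122 and 139 CPM to 54.4 and 79.1 CPM. Its log2 fold change of -0.97 did not pass (edgeR adjusted p = 0.111), though it did in DESeq2 (adjusted p = 1.69e-07) and without either Trbp-cKO library (edgeR adjusted p = 0.00152 and 6.30e-05). The cystine transporter gene Slc7a11, with 2 to 5 counts per library, the arginine transporter Slc7a3 and the transsulfuration genes Cth and Cbs were too low to test.

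Cytosolic aminoacyl-tRNA synthetases charge tRNA, and many are known ATF4 targets. Of the 19 genes in their list, which also holds the tRNA exportin gene Xpot, edgeR and DESeq2 each called 0. Log2 fold changes ran from -0.24 to 0.11 with a median of -0.05. Beside 23.9% of all genes tested, 1 gene had an unadjusted edgeR p under 0.05. That was Rars, the arginyl-tRNA synthetase (-0.24 ± 0.09 SE, edgeR adjusted p = 0.121), and Yars, the tyrosyl-tRNA synthetase, had the next smallest p (-0.18 ± 0.10, edgeR adjusted p = 0.305). The summed level of the list was 1147 and 1144 CPM in WT against 1133 and 1121 CPM in the knockout.

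**Figure D4:**
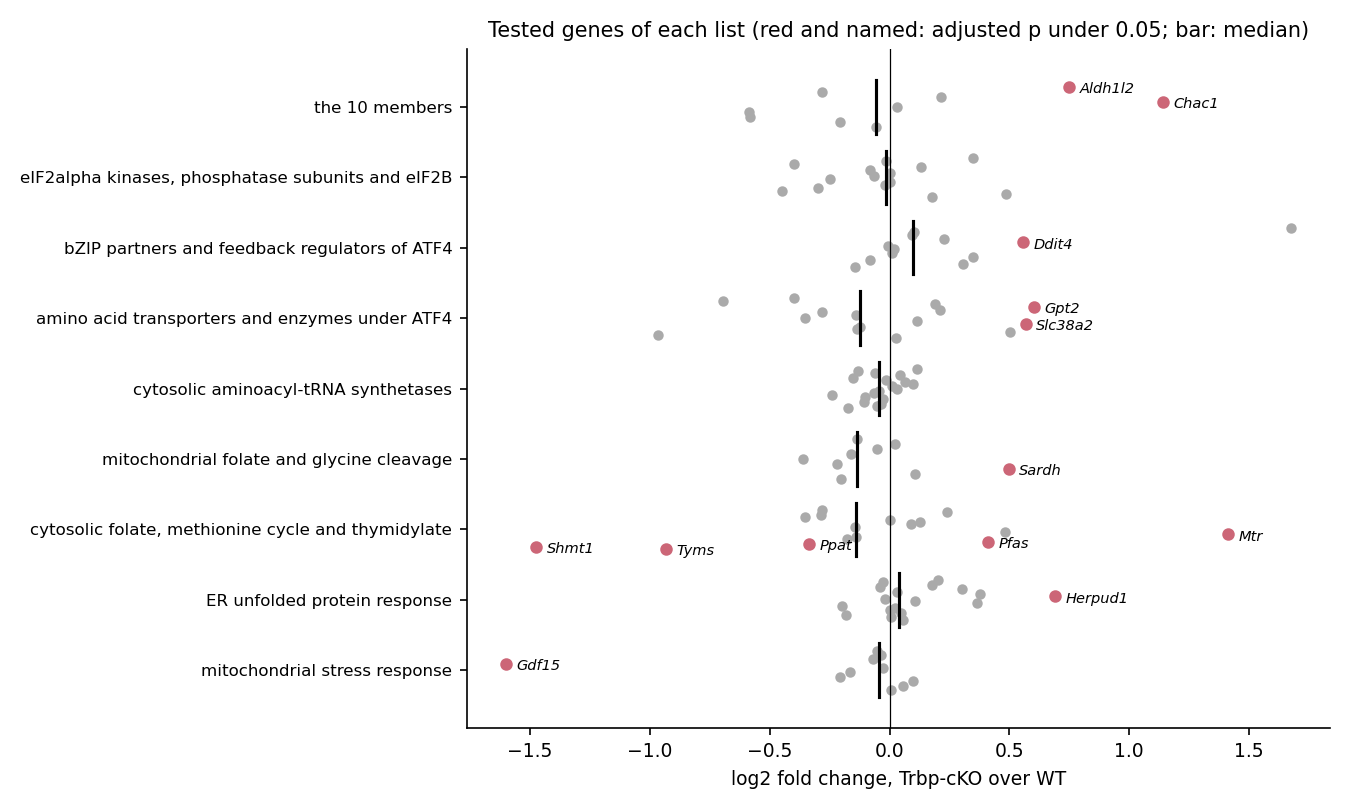
Log2 fold change of each tested gene (x axis) in the list of members and in 8 further pathway lists (y axis), in red with its name where the adjusted p was under 0.05, with a bar at the list's median and 1 gene of the cytosolic folate list not drawn. Medians lie between -0.14 and 0.10, and the genes farthest from 0 among those in red are Gdf15, Shmt1 and Mtr.

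The widest changes among folate genes were outside the mitochondrial members, in the cytosolic folate, methionine cycle and thymidylate list. In edgeR 3 of its 17 genes rose and 3 fell, beside 5.17% and 4.20% of all genes tested. DESeq2 called 1 higher, Mtr, and 1 lower, Shmt1. Mtr (NM_001081128, chromosome 13, 12181331 to 12258199), the methionine synthase that returns methyl-folate to the pool, was at 95.9 and 82.3 CPM in WT and at 254 and 220 CPM in Trbp-cKO. That is a 2.66-fold rise (log2 fold change 1.41 ± 0.10 SE, edgeR adjusted p = 2.74e-04), called under all 11 alternatives.

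Shmt1, the cytosolic counterpart of Shmt2, was at 8.97 and 9.69 CPM in WT and at 3.48 and 3.21 CPM in Trbp-cKO. It fell 2.78-fold (log2 fold change -1.47 ± 0.18 SE, edgeR adjusted p = 0.00156) and passed under all 11 alternatives. Tyms, the thymidylate synthase of DNA synthesis, was at 4.75 and 3.78 CPM in WT and at 2.25 and 2.24 CPM in Trbp-cKO. It passed at an edgeR adjusted p of 0.0485, which was lost in 6 of 10 alternatives (0.0806 to 0.410). Pfas and Ppat, enzymes of purine synthesis, were at 0.41 ± 0.09 and -0.34 ± 0.09 on the log2 scale (edgeR adjusted p = 0.0219 and 0.0395). Pfas lost its call in 4 alternatives (0.0623 to 0.196) and Ppat, whose span overlaps Paics, in 7 (0.0597 to 0.336).

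Mthfd1, the cytosolic enzyme that matches Mthfd2, was at 35.4 and 31.5 CPM in WT and at 29.8 and 30.8 CPM in Trbp-cKO (log2 fold change -0.14 ± 0.09 SE, edgeR adjusted p = 0.398). Aldh1l1, the cytosolic counterpart of Aldh1l2, stood at 1.28 and 1.65 CPM in WT and at 1.70 and 1.72 CPM in Trbp-cKO. Its log2 fold change of 0.24 ± 0.34 was measured too loosely to be set against the rise of Aldh1l2 (edgeR adjusted p = 0.733). Of 9 tested genes of mitochondrial folate and glycine cleavage beyond the members, Sardh alone rose and none fell, beside 5.17% and 4.20% of all genes tested. Sardh, the sarcosine dehydrogenase that feeds carbon to mitochondrial folate, was at 26.6 and 25.8 CPM in WT and at 36.8 and 37.2 CPM in Trbp-cKO (log2 fold change 0.50 ± 0.09, edgeR adjusted p = 0.00785), and DESeq2 did not call it (adjusted p = 0.0562), nor did edgeR without WT replicate 1 (0.0796) or 2 (0.0961). Mthfd1l and Mthfd2l were at -0.36 ± 0.31 and -0.22 ± 0.22 and did not pass.

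**Figure D5:**
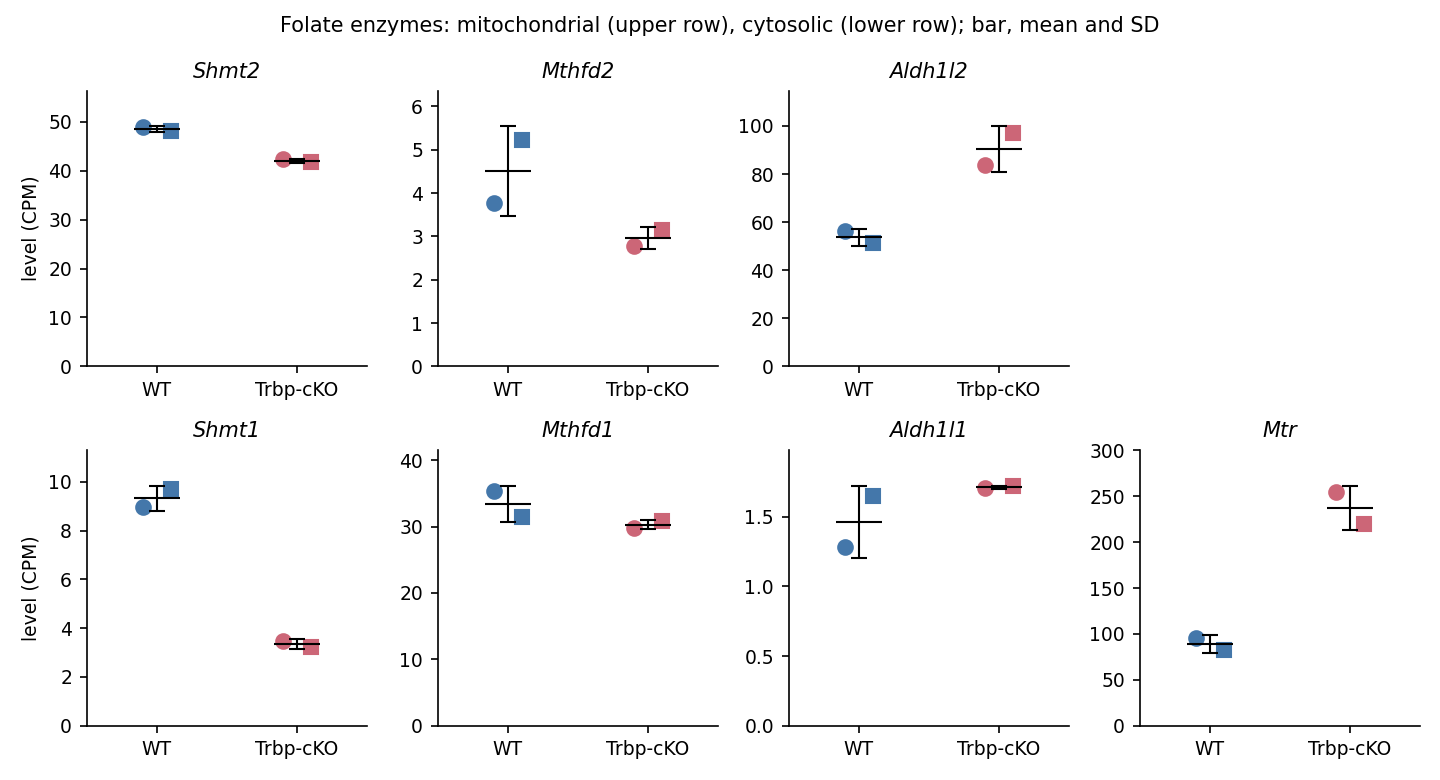
Level in CPM (y axis from 0) of the mitochondrial folate genes Shmt2, Mthfd2 and Aldh1l2 and the cytosolic genes Shmt1, Mthfd1, Aldh1l1 and Mtr in WT and Trbp-cKO libraries, with a circle for replicate 1, a square for replicate 2, and a bar for the mean and SD. Mtr and Aldh1l2 are higher and Shmt1 lower in both Trbp-cKO libraries.

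Markers of dividing cells moved in the same libraries as the folate genes. Of 18 cell-cycle genes tested, 17 fell, beside 4.20% of all genes tested. Among them were Mki67 (from 48.8 ± 4.30 to 13.0 ± 0.595 CPM) and the helicase gene Mcm2 (from 30.3 ± 3.61 to 9.88 ± 1.04 CPM, SD, n = 2 each). The summed level of the list was 232 and 260 CPM in WT against 73.1 and 82.2 CPM in the knockout. In the erythroid list, 4 of 6 fell, beside the same 4.20%, including Alas2 (-0.48 ± 0.10 on the log2 scale) and Hba-a1 (-0.47 ± 0.10). Hba-a1 and Hba-a2 have identical counts and make up 2 of the 4. Erythroid sums, which include both of these identical genes, were 1124 and 1391 CPM in WT against 904 and 1053 CPM in the knockout. The count of erythroid genes that fell was 0 when WT replicate 2 or Trbp-cKO replicate 1 was dropped, 1 when Trbp-cKO replicate 2 was and 2 when WT replicate 1 was. It was 2 in DESeq2 and 1 with transcript sums, where Hba-a1 was at -0.23 (edgeR adjusted p = 0.529). In the fibroblast list 5 of 10 fell, including Col1a2 (-0.55 ± 0.10), and 1 rose, Gsn (0.66 ± 0.09), beside 4.20% and 5.17% of all genes tested. The other 4, Pdgfra (0.09), Tcf21 (-0.05), Dcn (0.11) and Lum (-0.14), did not pass, so that the genes of this list did not move alike. Fibroblast sums were 4362 and 4092 CPM in WT against 3660 and 4080 CPM in the knockout. The count of fibroblast genes that fell was 0 on dropping WT replicate 1, 1 on dropping WT replicate 2 and 3 on dropping Trbp-cKO replicate 1, and Gsn lost its call without WT replicate 1 or Trbp-cKO replicate 2. The cell-cycle count was 11 without WT replicate 1, 8 without WT replicate 2 and 9 once genes averaging under 5 CPM were removed, while Mki67 and Mcm2 passed in all 11 alternatives. The lowest count of a tested gene in any library was 1 in the cell-cycle list, 16 in the erythroid list and 271 in the fibroblast list. The part of these lists in the values of Shmt1, Tyms, Psat1, Shmt2 and Mthfd2 was not tested. In tissue RNA fewer cells of a type and less RNA per cell cannot be told apart.

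Among 10 cardiomyocyte genes 4 rose and 2 fell, beside 5.17% and 4.20% of all genes tested. Myh6 (0.39 ± 0.05), Tnnt2 (0.39 ± 0.08), Ryr2 (0.32 ± 0.06) and Ttn (0.23 ± 0.06) rose. Tnnc1 (-3.70 ± 0.08) and Mybpc3 (-0.47 ± 0.06) fell. Sums of the list were 88860 and 87741 CPM in WT against 96342 and 101731 CPM in the knockout. Myh6 was the largest part of these sums, at 33181 and 33037 CPM in WT against 42540 and 44260 CPM in the knockout. Without either WT library none of the cardiomyocyte genes was called higher and 1 was called lower, Tnnc1. Of 10 endothelial genes Tek rose (0.29 ± 0.07, edgeR adjusted p = 0.0276), a call lost in 5 of 11 alternatives (0.0580 to 0.214), among them DESeq2 and the fits without either WT library or without Trbp-cKO replicate 1. Endothelial genes had sums of 1959 and 1962 CPM in WT against 2039 and 2021 CPM in the knockout. Neither edgeR nor DESeq2 called any of 10 smooth muscle and pericyte genes, of which 2 had an unadjusted edgeR p under 0.05 (Abcc9 at 0.20 ± 0.08 and Cspg4 at 0.25 ± 0.10), or of 10 macrophage and leukocyte genes, of which 1 had (Cd163 at 0.38 ± 0.12, followed by Itgam at 0.42 ± 0.20). Of all genes tested, 23.9% had such a p. Sums were 2563 and 2888 against 2348 and 3111 CPM for the first and 296 and 331 against 310 and 324 CPM for the second.

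The endoplasmic reticulum branch, which shares PERK with the pathway, gave 1 rise and no fall among 18 genes, in edgeR and in DESeq2. In edgeR, 5.17% of all genes tested rose and 4.20% fell. At an unadjusted edgeR p under 0.05 stood 5 genes of the list, all higher. Of all genes tested, 23.9% had such a p in either direction, and 11.4% had it and were lower. Log2 fold changes were positive for 13 genes and negative for 5, with a median of 0.04 against 0.00 over all genes tested. The synthetase list had 6 positive and 13 negative, and the mitochondrial stress list 3 and 7. With no filter edgeR called 3 higher. Herpud1, a membrane protein of endoplasmic reticulum-associated degradation, was at 137 and 143 CPM in WT and at 242 and 210 CPM in Trbp-cKO (log2 fold change 0.69 ± 0.08 SE, edgeR adjusted p = 0.00106), called under all 11 alternatives. The main chaperone gene Hspa5 (BiP) was at 757 and 645 CPM in WT and at 701 and 810 CPM in Trbp-cKO, with overlapping genotypes (0.11 ± 0.10, edgeR adjusted p = 0.579).

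In the mitochondrial stress list 1 of 10 tested genes fell and none rose, beside 4.20% and 5.17% of all genes tested. An unadjusted edgeR p under 0.05 was reached by 3, all lower, beside 11.4% of all genes tested that were lower at this p. The gene that fell was Gdf15, a stress hormone raised by ATF4, with 40 and 21 counts in WT and 12 and 10 in Trbp-cKO. That gave 3.02 and 2.04 CPM in WT against 0.929 and 0.747 CPM under Trbp-cKO. The log2 fold change was -1.60 ± 0.37 SE (edgeR adjusted p = 0.0280), opposite in sign to Chac1 and Aldh1l2, and the call was lost in DESeq2 (adjusted p = 0.223) and whichever of the 4 libraries was dropped (edgeR adjusted p between 0.0569 and 0.259). Fgf21, the other hormone of this response, had 0 or 1 count per library and was not tested.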

How the data were processed

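Ventricle mRNA was sequenced in 4 libraries at 2 weeks of age. Per the labels' protocols, RNA was extracted with Trizol from frozen ventricle, and libraries were made with an Illumina TruSeq RNA kit. Per the submitters' processing notes, the tools were Bowtie 0.12.9, cutadapt 0.9.5, edgeR, SAMtools 0.1.16 and CASAVA 1.8.2, on mm10, without a stated role. How reads were counted, whether by strand and on which annotation is not stated.

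Raw counts of each RefSeq transcript were deposited by the authors, and, per the file headers, a Trbp-cKO to WT ratio with its p-value and q-value. The ratio and q-value were only quoted. Of 30635 rows, 30016 matched GRCm38.p6 (the coordinates of mm10) by accession. The 110 rows left without a name, 0.117% to 0.140% of a library's counts, were left out. The transcript with the highest total was kept per gene. Members with a second row were Shmt2 and Psat1.

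Counts were fitted for all genes in R 4.3.3 with edgeR 4.0.16 (filterByExpr, TMM, robust glmQLFit, glmQLFTest, Benjamini-Hochberg adjustment at 0.05), which left 13625 genes, and in DESeq2 1.42.0. SE is the log2 fold change divided by the square root of F, and 95% intervals use the fit's degrees of freedom. The fit was tested on simulated data. The common biological coefficient of variation was 0.103. The count per library limits the precision of each value, and 2 libraries against 2 allow no exact permutation test to pass 0.05. Alternatives were other scalings, filters, transcript sums, DESeq2, leaving out each library, and a replicate block. Promoter sequences are RefSeq's (GRCm38.p6).

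The members, lists and tests were chosen with earlier results of these data known. Named are Tarbp2, all members, and per pathway list up to 4 genes past the threshold with the smallest p, or the 2 with the smallest p where none passed (markers, up to 2). Named outside this rule, with their values known, are for their role Myh6, Eif2ak1, Eif2ak3, Eif2ak4, Ppp1r15a, Psph, Mthfd1, Mthfd1l, Mthfd2l, Aldh1l1, Hspa5, Atf3, Slc7a1 and Tyms, and the genes too low to test. Further marker genes named with their values known are Pdgfra, Tcf21, Dcn, Lum, Tnnt2, Ryr2 and Ttn. Overlaps with other genes are not given for these. An item of the lists is counted but not reported here.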

Additional observations from a re-analysis of the deposited data

How the results depend on the processing

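Both calls among the members, Chac1 and Aldh1l2, were made with DESeq2 size factors, with total count scaling, in DESeq2, with no filter, with transcript sums and with the replicate block, and 2 members rose in each. A mean of at least 5 CPM left out Trib3, Mthfd2 and Psat1 and changed neither call. Over the 4 fits without a library, 1 to 2 members rose and none fell. Genes that rose numbered 705 and fell 572, against 437 and 310 in DESeq2 and 144 to 684 and 131 to 487 without a library. Over the pathway lists together, 8 genes rose and 4 fell, with 5 and 2 in DESeq2, 2 lower at a mean of at least 5 CPM, and 3 to 9 higher and 1 to 4 lower without a library. Marker genes gave 0 to 7 higher and 10 to 24 lower without a library, and 2 higher with the replicate block. The cause was not tested, and fits without a library hold fewer samples.

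Signs changed for genes that did not pass, with their range over the 4 fits without a library given in log2 units. Ddit3 ranged from -0.19 to 0.22 (negative without WT replicate 1, at -0.12, and Trbp-cKO replicate 2) and was at -0.012 with total count scaling. Trib3 ranged from -0.31 to 0.20 (positive without WT replicate 2 and, at 0.16, Trbp-cKO replicate 1). Asns ranged from -0.56 to 0.077, Eif2ak1 from -0.076 to 0.049, Eif2ak4 from -0.22 to 0.077, Mthfd2l from -0.53 to 0.032, and Hspa5 from -0.0091 to 0.23. With 50 bases after the start, the number of members with GTTACA went from 0 to 1 and with CARE from 2 to 3.

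Replicate numbers are shared between genotypes, but no label says that they pair libraries. Differences of replicate 1 from replicate 2 correlated between genotypes at 0.187 over genes. With the replicate block, 549 genes rose and 2 members rose, Chac1 and Aldh1l2, and Atf3 (adjusted p = 0.0129), Slc7a1 (0.00428) and Ppp1r15a passed. In the fibroblast list, 2 genes fell and 1 rose with this block.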
